A study of Mus musculus with 12 samples.

Results

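Claudins and other genes of the tight junction and of epithelial polarity, 42 mouse genes chosen by symbol of 47642 in the table (20 claudins and 22 others), were followed by bulk RNA sequencing of mIMCD3 cells, an immortalised epithelial line from the inner medullary collecting duct of the mouse. All 42 had a count in at least 1 library, and 37 reached the mean of 1 normalized count that was required for a test. Tight junctions are the belts of membrane protein that seal the space between neighbouring epithelial cells. Their strands are built from claudins, whose extracellular loops decide which ions and how much water pass between the cells, while occludin and its relatives, junctional adhesion molecules and cytoplasmic scaffolds such as ZO-1 (Tjp1) complete and anchor them. The Par, Crumbs and Scribble complexes set the border between the apical and the basolateral membrane at the same place, and each nephron segment has its own set of claudins.

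The groups were wild-type (Wt) cells, 1 Pkd1-/- clone and 1 Pkd2-/- clone, with 4 libraries each, and the study used them as a cell model of polycystic kidney disease, which is caused by mutations of either gene. The Pkd1-/- clone carries 2 deletions on chromosome 17, from 24550055 to 24594963 and from 24550106 to 24594903, and the Pkd2-/- clone 1 deletion on chromosome 5, from 104478281 to 104490878, as the labels give them without naming a build. Each library came from a separate dish of the same line or clone, harvested 4 days after the cells had become fully confluent and chosen for the purity of its RNA, so the p-values below measure the spread between dishes and cannot separate the genotype from the clone. The comparison with wild-type asks what differs once either gene is lost, and the comparison of the clones asks in which genes they differ from each other.

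Pkd1 itself was at 682 to 883 normalized counts in wild-type and at 30 to 49 in Pkd1-/- libraries. Pkd2 was at 3855 to 4135 normalized counts in the Pkd2-/- libraries and at 3438 to 4467 in wild-type, and since the Pkd2 deletion spans a part of the gene, its gene-level count does not check that label. The libraries held 25966273 to 28027792 normalized counts, and an estimated 23188147 to 30328800 reads on genes. The epithelial markers Cdh1, Epcam, Krt8 and Krt18 were abundant in every library (Cdh1 at 13291 to 16508 normalized counts), as were Pax2, Pax8 and Hoxb7, transcription factors of the collecting duct lineage. Krt19, another epithelial keratin, was at 4030 to 4850 normalized counts in Wt, 1278 to 1418 in Pkd1-/- and 1392 to 1456 in Pkd2-/- libraries, and was called lower in both clones (log2 fold changes of -1.75 and -1.66). The collecting duct factor Gata3 was at 176 to 248 normalized counts in Wt, 42 to 56 in Pkd1-/- and 294 to 430 in Pkd2-/- libraries. Lhx1 stood at 23 to 31, 20 to 43 and 0 to 2 in the same order, and Elf5 at 12 or fewer in every library. The water channels Aqp2 and Aqp4 of the collecting duct were at 0 in all 12 libraries. Endothelial Cdh5 and Kdr, the thick limb transporters Slc12a1 and Kcnj1 and the leukocyte genes Cd3e and Adgre1 were at 0 as well.

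Per kilobase of exon, which allows levels to be compared between genes, Cldn4 was the most abundant member in wild-type cells (3475 ± 316 normalized counts per kb, SD, n = 4), followed by Cldn7 (3195 ± 230), and the difference between these neighbours was within their spread. The polarity kinase Prkci (2498 ± 104), the adhesion molecules F11r (2118 ± 92.4) and Cxadr (2090 ± 142), and the apical determinant Crb3 (1116 ± 98.9) came next. Cldn12 (447 ± 33.1) and Cldn3 (379 ± 37.8) followed at a lower level, and Cldn1 (115 ± 7.29) and Cldn9 (111 ± 33.4) overlapped. Cldn5, Cldn10, Cldn11, Cldn16 and Cldn18 had at most 2 normalized counts in any library and were not tested. A count of 0 allows up to 3 counts in a library, so these genes were not detectable above that level. Summed over all 42 members, normalized counts ranged from 103938 to 109473 in Wt, from 83509 to 88417 in Pkd1-/- and from 119364 to 131503 in Pkd2-/- libraries, and the 3 ranges did not overlap.

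**Figure D1:**
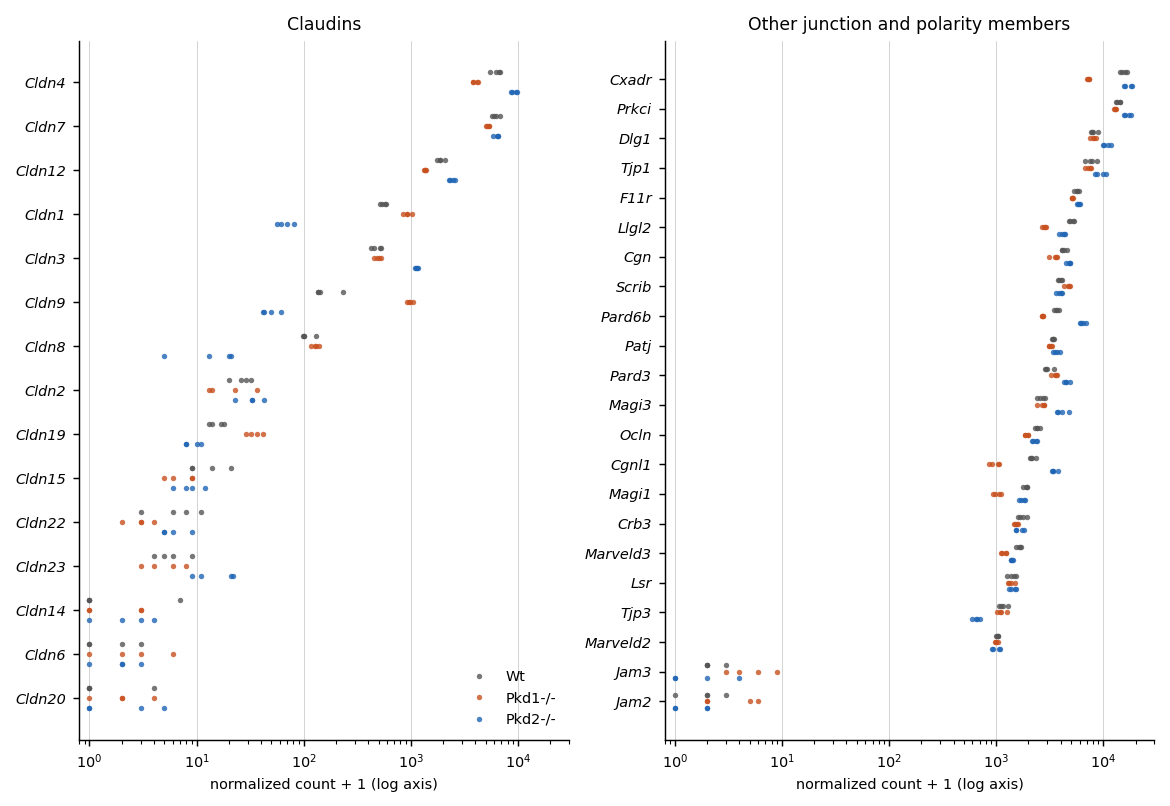
Normalized count plus 1 of the 37 tested members in each of the 12 libraries on a log axis, claudins on the left and the other members on the right, both ordered by the wild-type mean, with 1 point per library coloured by genotype. Claudins spread from near 0 to 9806 counts, whereas all other members except Jam2 and Jam3 lie above 500.

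The clones differed from wild-type in different members and, for several claudins, in opposite directions. In Pkd1-/- cells Cldn9 was 6.11-fold higher and Cldn19 2.34-fold higher, while the scaffold Cgnl1 was 2.25-fold and the adhesion molecule Cxadr 2.14-fold lower. In Pkd2-/- cells Cldn1 was 8.37-fold, Cldn8 7.75-fold and Cldn9 3.37-fold lower, while Cldn3 was 2.36-fold higher and the scarce Cldn23 2.95-fold higher. Folds are ratios of mean normalized counts. These were the members called differentially expressed, that is, with an adjusted p under 0.05 and an absolute log2 fold change of at least 1 (limma on log2 of the normalized count plus 1, Benjamini-Hochberg over 18552 genes).

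In Pkd1-/- cells 4 of 37 members were called (10.8%), beside 6.24% of all genes tested. The 2 higher members stood beside 2.96% of all genes called higher, and the 2 lower ones beside 3.28% called lower. Without the limit on size, 18 members (48.6%) had an adjusted p under 0.05, beside 27.1% of all genes, 5 of them higher (Cldn1, Cldn9, Cldn19, Pard3, Scrib) beside 13.6% of all genes, and 13 lower beside 13.5%. Libraries of the 2 genotypes did not overlap for 18 members, beside 27.1% of all genes. The median log2 fold change of the 37 members was -0.09, and that of all genes tested was 0.01.

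In Pkd2-/- cells 5 of 37 members were called (13.5%), beside 9.62% of all genes, with 2 higher beside 3.24% and 3 lower beside 6.38%. At an adjusted p under 0.05 there were 19 members (51.4%) beside 42.3% of all genes, 12 higher beside 20.0% and 7 lower beside 22.3%, and libraries did not overlap for 16 members (43.2%) beside 37.2%. The share of members past the test was therefore closer to that of all genes than in Pkd1-/- cells. These shares of all genes were not matched to the level of the members. With a minimum mean of 10 normalized counts, 4854 of 13703 genes had an adjusted p under 0.05 in Pkd1-/- and 7454 in Pkd2-/- cells. At that minimum 29 members were tested. Both comparisons use the same wild-type libraries. Pard3 was past the test and higher in both clones, Llgl2 and Marveld3 were past it and lower in both, and 8 members were past it with opposite signs: Cldn1, Cldn9 and Cldn19 were higher in Pkd1-/- and lower in Pkd2-/-, and Cldn4, Cldn12, Cgn, Cgnl1 and Pard6b the reverse. Of these, Pard3 in Pkd1-/- and Cldn19 and Cgn in Pkd2-/- cells lost an adjusted p under 0.05 when any 1 of 6, 4 and 6 libraries was left out, with values up to 0.0736, 0.063 and 0.102.

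**Figure D2:**
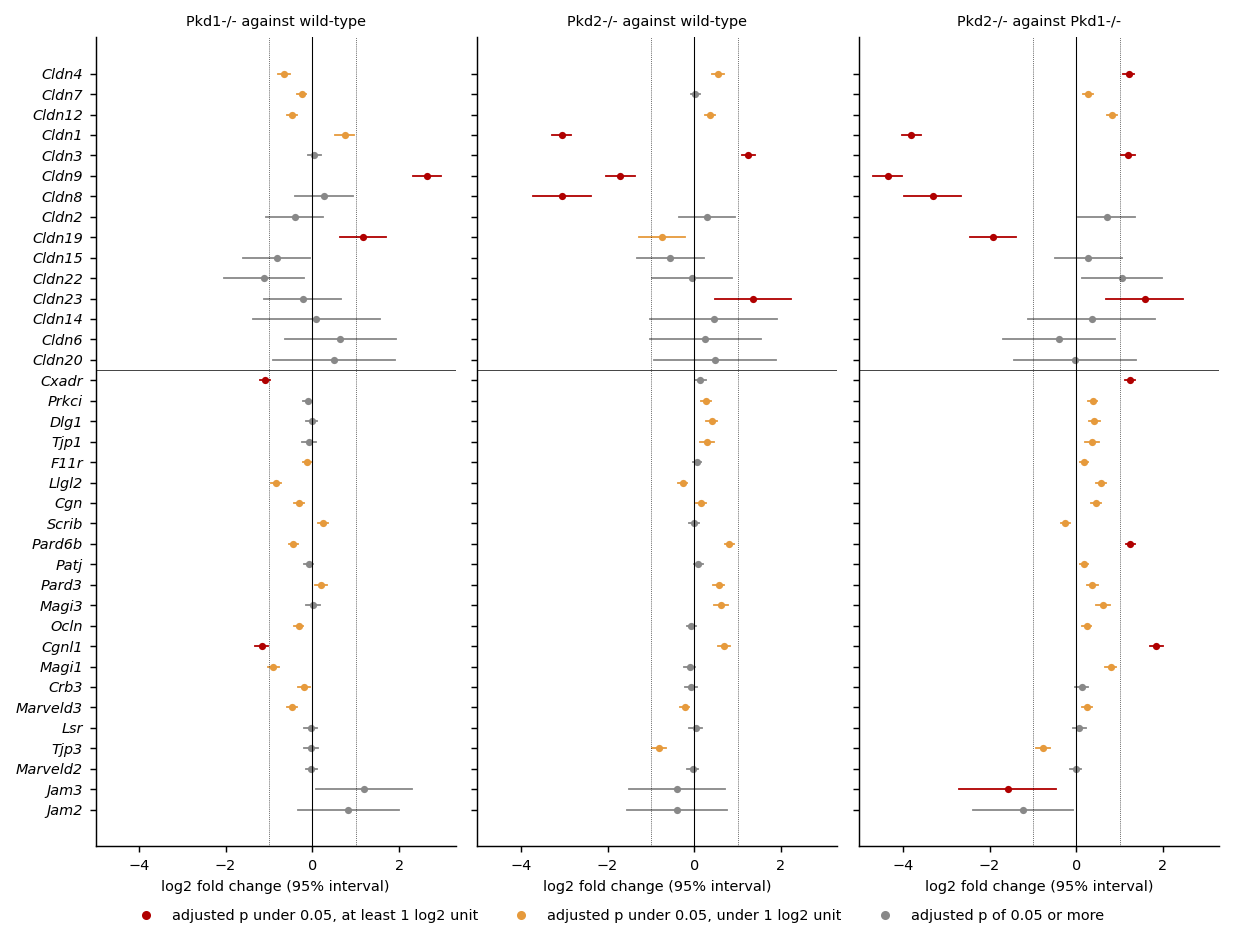
Log2 fold change of the 37 tested members with its 95% interval in the 3 comparisons, claudins above the horizontal line and the other members below it, with dotted lines at 1 and -1. The members called in either clone against wild-type are mostly claudins, and in the comparison of the clones most non-claudin members lie to the right of 0.

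Among the claudins that the collecting duct is known for, Cldn3 and Cldn4 were higher in Pkd2-/- cells, Cldn8 was nearly lost there, and Cldn7 did not pass the test. Cldn4, which forms a paracellular chloride pathway with Cldn8, was at 5508, 6755, 6695 and 6285 normalized counts in Wt, 3800, 4107, 3809 and 4218 in Pkd1-/- and 8722, 8631, 9806 and 9634 in Pkd2-/- libraries. The 3 genotypes did not overlap. The log2 fold change was -0.66 (SE 0.06, adjusted p = 2.11e-07) in Pkd1-/- and 0.55 (SE 0.06, adjusted p = 1.18e-06) in Pkd2-/- cells.

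Cldn3, a sealing claudin whose gene lies 39.28 kb from Cldn4 on chromosome 5 and on the opposite strand, was at 421, 522, 511 and 455 normalized counts in Wt, 526, 505, 452 and 486 in Pkd1-/- and 1089, 1143, 1116 and 1162 in Pkd2-/- libraries. Wild-type and Pkd1-/- libraries overlapped, and all Pkd2-/- libraries lay above both. Its log2 fold change was 1.24 in Pkd2-/- cells (SE 0.07, adjusted p = 9.14e-11) and 0.05 in Pkd1-/- cells (adjusted p = 0.699). The neighbouring pair thus moved together in Pkd2-/- cells, whereas in Pkd1-/- cells Cldn4 alone passed the test. The 17 other genes averaging 10 or more normalized counts within 500 kb of Cldn3 had a median shift on the log2 scale of -0.08 in Pkd2-/- and 0.22 in Pkd1-/- cells.

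Cldn8, which recruits Cldn4 to the junction, was at 129, 98, 99 and 100 normalized counts in Wt, 138, 126, 115 and 129 in Pkd1-/- and 4, 20, 19 and 12 in Pkd2-/- libraries. The Pkd2-/- libraries lay far below the rest, with a log2 fold change of -3.05 (SE 0.32, adjusted p = 2.52e-07), while wild-type and Pkd1-/- overlapped (0.26, adjusted p = 0.617). Cldn7, which binds EpCAM at the lateral membrane, was at 5780, 6829, 6253 and 6032 normalized counts in Wt, 5402, 4994, 5340 and 5170 in Pkd1-/- and 6562, 6382, 6536 and 5849 in Pkd2-/- libraries. It was lower by 0.25 on the log2 scale in Pkd1-/- cells (adjusted p = 0.00155), without overlap, and its difference in Pkd2-/- cells was 0.03 with a 95% interval from -0.09 to 0.14.

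Of the claudins outside the collecting duct set, Cldn9, Cldn1 and Cldn19 were higher in Pkd1-/- and lower in Pkd2-/- cells. Cldn9, a claudin best known from the inner ear and the neonatal kidney, was at 140, 233, 136 and 134 normalized counts in Wt, 992, 913, 1057 and 968 in Pkd1-/- and 48, 60, 42 and 41 in Pkd2-/- libraries. The 3 genotypes did not overlap, and the log2 fold change was 2.64 in Pkd1-/- (SE 0.16, adjusted p = 2.65e-10) and -1.71 in Pkd2-/- cells (SE 0.16, adjusted p = 5.13e-08). Cldn9 lies on chromosome 17 at 23682584 to 23684026 (GRCm38), 0.866 Mb from Pkd1. Cldn6, its neighbour 137 bases away on the opposite strand, had at most 5 normalized counts in any library, and the 20 other genes averaging 10 or more normalized counts within 500 kb of Cldn9 had a median shift on the log2 scale of 0.06 in Pkd1-/- cells.

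Cldn1, a barrier-forming claudin of the epidermis that the kidney expresses in the parietal epithelium of Bowman's capsule, was at 533, 592, 517 and 576 normalized counts in Wt, 1028, 917, 927 and 852 in Pkd1-/- and 61, 69, 55 and 80 in Pkd2-/- libraries. It had the same order as Cldn9, without overlap between genotypes. Its log2 fold change was 0.75 in Pkd1-/- (SE 0.10, adjusted p = 1.73e-05) and -3.06 in Pkd2-/- cells (SE 0.10, adjusted p = 2.96e-14). The 4 other genes averaging 10 or more normalized counts within 500 kb of Cldn1 showed median log2 fold changes of 0.09 in both clones.

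Cldn19, which pairs with Cldn16 in the thick ascending limb to let magnesium and calcium through, was scarce, at 12, 17, 16 and 13 normalized counts in Wt, 41, 31, 36 and 28 in Pkd1-/- and 10, 9, 7 and 7 in Pkd2-/- libraries. The order was again Pkd1-/-, wild-type and Pkd2-/- without overlap, with log2 fold changes of 1.17 (SE 0.25, adjusted p = 0.00152) and -0.75 (SE 0.25, adjusted p = 0.0227). With a pseudocount of 5 the log2 fold change in Pkd1-/- cells was 0.997 and fell short of the limit on size. The difference in Pkd2-/- cells lost the test without wild-type replicate 2 or 3 or Pkd2-/- replicate 3 or 4, with an adjusted p of up to 0.063. Cldn16 was at 0 in all libraries but 1.

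Cldn12, a claudin linked to calcium permeability, was the third most abundant claudin per kilobase in Wt. It stood at 1738 to 2077 normalized counts in Wt, 1333 to 1395 in Pkd1-/- and 2282 to 2589 in Pkd2-/- libraries. Its log2 fold changes of -0.47 in Pkd1-/- and 0.35 in Pkd2-/- cells both passed the test. Within 500 kb of Cldn12, 7 other genes averaged 10 or more normalized counts. Their median shift on the log2 scale was -0.85 in Pkd1-/- and -0.42 in Pkd2-/- cells. Cldn23 was at 8, 3, 5 and 4 normalized counts in Wt, 3, 2, 7 and 5 in Pkd1-/- and 10, 21, 8 and 20 in Pkd2-/- libraries. Wild-type and Pkd2-/- libraries touched at 8, and the log2 fold change was 1.35 (SE 0.42, adjusted p = 0.0138). Without Pkd2-/- replicate 2 the adjusted p was 0.0551, and without replicate 4 it was 0.0515. With a pseudocount of 5 the log2 fold change was 0.94, below the limit on size. Cldn2, the cation and water pore of the proximal tubule, was at 28, 19, 25 and 31 normalized counts in Wt, 36, 12, 22 and 13 in Pkd1-/- and 32, 22, 42 and 32 in Pkd2-/- libraries, which overlapped throughout. Its log2 fold changes were -0.41 (95% interval -1.06 to 0.24) and 0.29 (-0.36 to 0.94), intervals too wide to exclude a change of less than about 1 log2 unit. Cldn6, Cldn14, Cldn15, Cldn20 and Cldn22 had at most 20 normalized counts in any library and did not pass the test in any of the 3 comparisons. All exon bases of Cldn22 lie within exons of Wwc2 on the other strand. The strand setting of the counting is not stated, so how reads in this overlap were counted is not known.

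**Figure D3:**
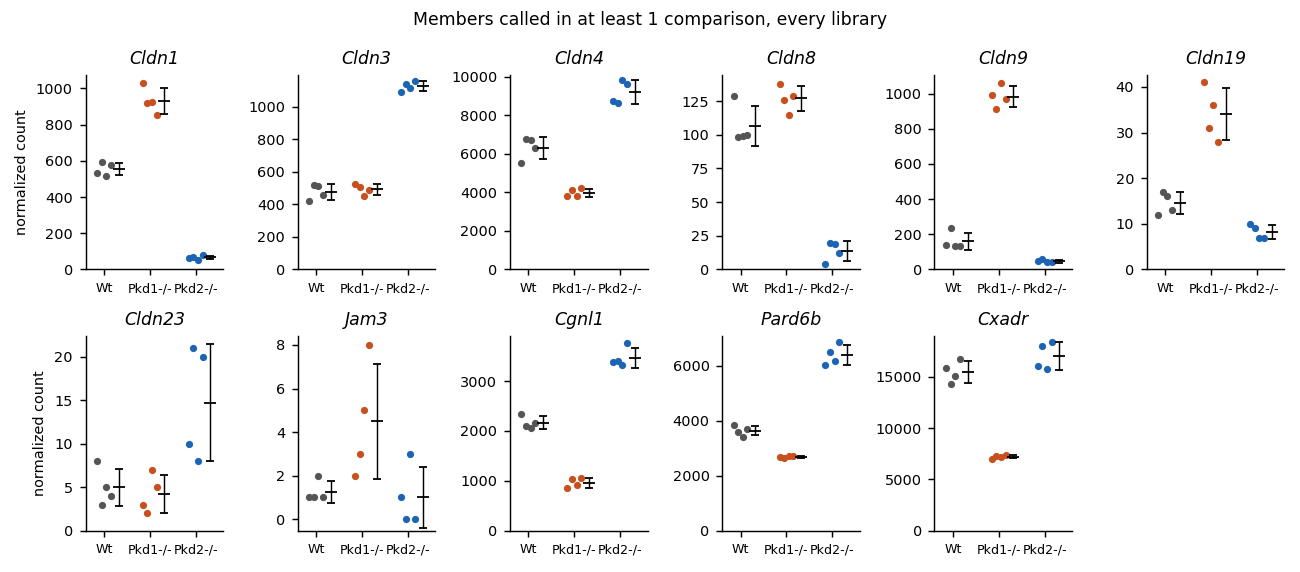
Normalized counts on linear axes of the 11 members called in at least 1 of the 3 comparisons, with 1 point per library and a bar at the mean ± SD (n = 4) to the right of each genotype. Cldn1, Cldn9 and Cldn19 are highest in Pkd1-/- and lowest in Pkd2-/- cells, while Cldn4, Cgnl1 and Pard6b show the reverse order.

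The makeup of the claudin transcripts differed accordingly. Per kilobase, Cldn4 and Cldn7 together took 85.5% ± 0.555 (SD, n = 4) of the claudin total in Wt, 74.5% ± 0.699 in Pkd1-/- and 84.3% ± 0.927 in Pkd2-/- cells. Cldn7 alone took 41.0% ± 1.00 in Wt, 41.0% ± 1.22 in Pkd1-/- and 33.0% ± 1.96 in Pkd2-/- cells. Its share in every Pkd2-/- library lay below that in every wild-type library. Cldn9 took 1.42% ± 0.346 in Wt, 10.4% ± 0.611 in Pkd1-/- and 0.336% ± 0.0687 in Pkd2-/- cells. The share of Cldn3 was 4.86% ± 0.173 in Wt, 5.98% ± 0.374 in Pkd1-/- and 9.08% ± 0.353 in Pkd2-/- cells. In Pkd1-/- cells the Cldn3 count did not pass the test (log2 fold change 0.05), while the claudin sum was lower than in Wt. Cldn4 alone took 44.5% ± 1.29 in Wt, 33.5% ± 1.83 in Pkd1-/- and 51.3% ± 2.15 in Pkd2-/- cells. None of the ranges of Cldn9, Cldn3 or Cldn4 overlapped between genotypes. The claudin sum per kilobase was 7796 ± 566, 6541 ± 70.5 and 9868 ± 283 in the same order.

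**Figure D4:**
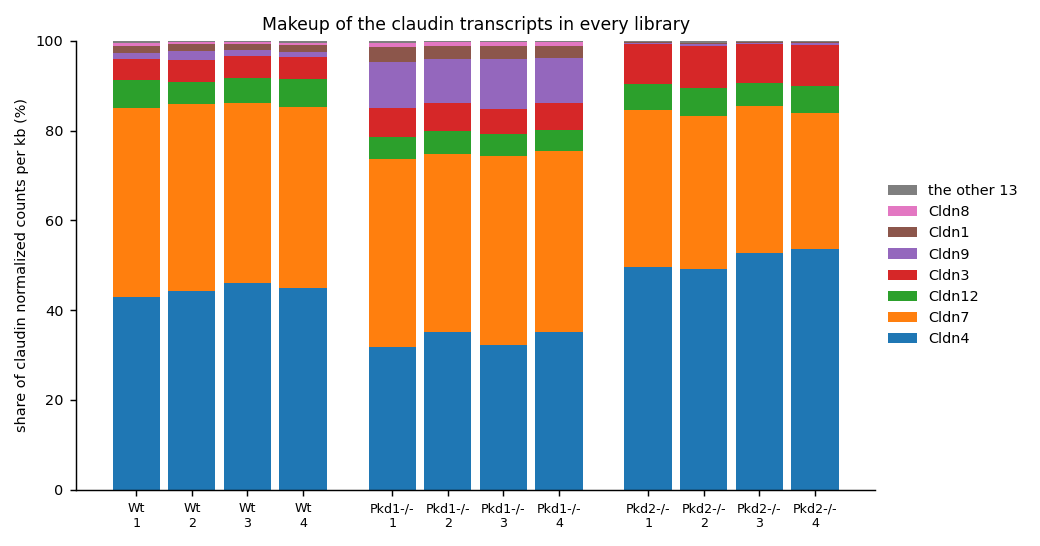
Share of each claudin in the sum of claudin normalized counts per kilobase, in percent, as 1 stacked bar per library and with the 13 scarcest claudins pooled. Cldn9 takes about 10% in every Pkd1-/- library, and Cldn3 takes over 8% in every Pkd2-/- library.

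Of the other transmembrane members, Cxadr was the one called against wild-type, while occludin, F11r and the tricellular receptor Lsr stayed within 0.32 log2 units of wild-type in both clones. Cxadr, the coxsackievirus and adenovirus receptor, which joins neighbouring cells at the junction, was at 15805, 14252, 15078 and 16725 normalized counts in Wt, 7033, 7306, 7207 and 7342 in Pkd1-/- and 16009, 17954, 15757 and 18416 in Pkd2-/- libraries. Every Pkd1-/- library lay below all others (log2 fold change -1.10, SE 0.06, adjusted p = 3.91e-11), and Pkd2-/- and wild-type libraries overlapped (0.14, adjusted p = 0.0593). Of its exon bases, 9.4% overlap Btg3, on the other strand, and without the strand setting how reads there were counted is not known.

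Ocln, the founding MARVEL protein of the junction, was at 2303, 2408, 2381 and 2537 normalized counts in Wt, 1864, 1997, 1992 and 1872 in Pkd1-/- and 2203, 2407, 2179 and 2364 in Pkd2-/- libraries. It was lower by 0.32 on the log2 scale in Pkd1-/- cells (adjusted p = 7.74e-05), without overlap, and overlapped wild-type in Pkd2-/- cells (-0.07, 95% interval -0.18 to 0.03). Marveld3 was lower in both clones, by 0.48 (adjusted p = 1.52e-06) and 0.23 (adjusted p = 0.00205) on the log2 scale, with 1524 to 1700, 1111 to 1246 and 1371 to 1426 normalized counts in wild-type, Pkd1-/- and Pkd2-/-. Tricellulin (Marveld2), which seals the corners where cells meet, overlapped in all 3 genotypes at 911 to 1090 normalized counts. Lsr, which recruits tricellulin to those corners, overlapped as well at 1263 to 1528, and 43.6% of its exon bases overlap a gene on the other strand.

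F11r (JAM-A), an adhesion molecule that binds the Par complex, was at 5321, 5915, 5703 and 5622 normalized counts in Wt, 5099, 5144, 5125 and 5238 in Pkd1-/- and 6074, 5897, 5758 and 5667 in Pkd2-/- libraries. The Pkd1-/- libraries lay just below wild-type (log2 fold change -0.13, adjusted p = 0.0295), and the Pkd2-/- libraries overlapped it (0.05, adjusted p = 0.353). The former rose to an adjusted p of up to 0.0941 without wild-type replicate 2, 3 or 4 or Pkd1-/- replicate 1, 2 or 3. Jam2 and Jam3 had at most 8 normalized counts in any library and did not pass the test against wild-type in either clone. Jam3 was called in the comparison of the clones, at 2, 3, 5 and 8 normalized counts in Pkd1-/- and 1, 0, 3 and 0 in Pkd2-/- libraries, with 1, 1, 2 and 1 in wild-type. The clones overlapped, and with a pseudocount of 5 the log2 fold change was -0.65, short of the limit on size. The adjusted p of 0.0194 rose to 0.0746 without Pkd1-/- replicate 4 and to 0.0652 and 0.0655 without Pkd2-/- replicates 2 and 4, and 36.2% of its exon bases overlap a gene on the other strand.

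Among the cytoplasmic scaffolds, Cgnl1 and Magi1 differed more from wild-type in Pkd1-/- cells, and Tjp3 and Magi3 in Pkd2-/- cells. Cgnl1 (paracingulin), a scaffold shared by tight and adherens junctions, was at 2344, 2103, 2068 and 2157 normalized counts in Wt, 856, 1036, 909 and 1057 in Pkd1-/- and 3381, 3395, 3321 and 3762 in Pkd2-/- libraries. The 3 genotypes did not overlap, with log2 fold changes of -1.17 (SE 0.07, adjusted p = 1.55e-10) and 0.68 (SE 0.07, adjusted p = 1.41e-07). Its paralog cingulin (Cgn) moved the same way by less, with log2 fold changes of -0.30 (adjusted p = 4.14e-04) and 0.15 (adjusted p = 0.0385), the latter with overlapping libraries and an adjusted p of up to 0.102 without wild-type replicate 1, 2 or 4 or Pkd2-/- replicate 1, 3 or 4.

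Magi1, a scaffold of tight and adherens junctions, fell by 0.90 on the log2 scale in Pkd1-/- cells (adjusted p = 1.63e-09), from 1782 to 1947 normalized counts in wild-type to 926 to 1103, and overlapped wild-type in Pkd2-/- cells. Its paralog Magi3 was higher in Pkd2-/- cells by 0.62 (adjusted p = 2.79e-06), at 3656 to 4812 against 2419 to 2885, and its difference in Pkd1-/- cells was 0.01 (95% interval -0.16 to 0.17). ZO-3 (Tjp3) fell by 0.81 on the log2 scale in Pkd2-/- cells (adjusted p = 5.69e-08), at 592 to 709 against 1063 to 1277 normalized counts. ZO-1 (Tjp1), the scaffold that polymerises claudins, was at 7800, 6756, 7442 and 8757 normalized counts in Wt, 6773, 7612, 7161 and 7483 in Pkd1-/- and 8775, 9947, 8344 and 10506 in Pkd2-/- libraries. It was higher by 0.29 on the log2 scale in Pkd2-/- cells (adjusted p = 0.00453) although 1 Pkd2-/- library lay within the wild-type range, and it overlapped wild-type in Pkd1-/- cells (-0.08, adjusted p = 0.509).

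The 3 genes of the Par complex among the 42, Pard6b, Pard3 and Prkci, were higher in Pkd2-/- cells, as were 20.0% of all genes tested at an adjusted p under 0.05. The complex marks the apical border, and other genes of it that are not among the 42 did not all move this way. The kinase Prkcz was higher, at 582 to 626 normalized counts in Wt and 662 to 742 in Pkd2-/- libraries, while others were lower. The adaptor Pard6a was at 406 to 576 normalized counts in Wt and at 317 to 386 in Pkd2-/- libraries (log2 fold change -0.43). The GTPase Cdc42 was at 13055 to 13852 and at 10611 to 11484 (-0.28), and the scarce Pard3b at 3 to 6 and at 0 in every Pkd2-/- library. The difference of Pard6g (-1.45, adjusted p = 0.0595) did not pass the test. Pard6b, its adaptor, was at 3851, 3597, 3428 and 3705 normalized counts in Wt, 2668, 2652, 2710 and 2722 in Pkd1-/- and 6040, 6488, 6162 and 6882 in Pkd2-/- libraries. The genotypes did not overlap, with log2 fold changes of -0.44 (SE 0.05, adjusted p = 1.35e-06) and 0.81 (SE 0.05, adjusted p = 1.34e-10). The 8 other genes averaging 10 or more normalized counts within 500 kb of Pard6b had a median shift on the log2 scale of 0.17 in Pkd1-/- and 0.68 in Pkd2-/- cells, the latter close to that of Pard6b itself. Pard3, the scaffold of the complex, was at 3484, 2880, 2977 and 2928 normalized counts in Wt, 3245, 3510, 3657 and 3622 in Pkd1-/- and 4281, 4508, 4446 and 4886 in Pkd2-/- libraries. It was higher by 0.57 on the log2 scale in Pkd2-/- (adjusted p = 4.6e-07) without overlap and by 0.20 in Pkd1-/- cells (adjusted p = 0.0223), where 1 wild-type library lay among the Pkd1-/- ones. The latter rose to an adjusted p of up to 0.0736 without replicate 2, 3 or 4 of either genotype. Prkci, its kinase, was higher by 0.27 in Pkd2-/- cells (adjusted p = 2.17e-04).

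In the Crumbs complex, Crb3, the small Crumbs protein of epithelia, was at 1685, 1948, 1766 and 1582 normalized counts in Wt, 1552, 1497, 1584 and 1469 in Pkd1-/- and 1733, 1546, 1826 and 1546 in Pkd2-/- libraries. It was lower by 0.19 on the log2 scale in Pkd1-/- cells (adjusted p = 0.0416) with overlapping libraries, and the adjusted p rose to as much as 0.149 without any 1 of these 8 libraries except wild-type replicate 4. The scaffold Patj did not pass the test against wild-type in either clone. In the Scribble complex, which holds the basolateral domain, Llgl2 was at 4762 to 5275 normalized counts in Wt, 2655 to 2914 in Pkd1-/- and 3852 to 4435 in Pkd2-/- libraries. It fell by 0.84 (adjusted p = 5.36e-10) and by 0.27 on the log2 scale (adjusted p = 3.57e-04), without overlap. Scrib was at 3754, 3882, 4038 and 4087 normalized counts in Wt, 4296, 4934, 4671 and 4806 in Pkd1-/- and 4078, 3649, 3896 and 4061 in Pkd2-/- libraries. It was higher in Pkd1-/- cells by 0.25 (adjusted p = 0.00131) and overlapped wild-type in Pkd2-/- cells. Dlg1 was higher by 0.40 in Pkd2-/- cells (adjusted p = 2.3e-05), and its difference in Pkd1-/- cells was -0.01 (95% interval -0.14 to 0.11).

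Set directly against each other, the clones differed in more members than either did from wild-type: 11 of 37 were called (29.7%), beside 11.8% of all genes tested. Higher in Pkd2-/- than in Pkd1-/- cells were 6, beside 4.53% of all genes, namely Cldn3, Cldn4, Cldn23, Cgnl1, Pard6b and Cxadr, and lower were 5, beside 7.23%, namely Cldn1, Cldn8, Cldn9, Cldn19 and Jam3. Cldn9 was 20.6-fold lower (log2 fold change -4.35, SE 0.16, adjusted p = 5.66e-14), Cldn1 14.1-fold lower (-3.80, SE 0.10, adjusted p = 8.09e-16) and Cldn8 9.24-fold lower (-3.31, SE 0.32, adjusted p = 6.54e-08). Cgnl1 was 3.59-fold higher (1.85, SE 0.07, adjusted p = 6.04e-14), and Pard6b, Cxadr and Cldn4 were 2.38-fold, 2.36-fold and 2.31-fold higher. At an adjusted p under 0.05 there were 27 members (73.0%), beside 46.3% of all genes, with 20 higher beside 21.9% and 7 lower beside 24.3%, and libraries did not overlap for 27 members, beside 41.8%. With a minimum mean of 10 normalized counts, 8057 of 13703 genes had an adjusted p under 0.05. The median log2 fold change was 0.28 over the 37 members and -0.01 over all genes. At an adjusted p under 0.05, 15 of the 22 members other than claudins were higher in Pkd2-/- cells and 3 lower, and of the 15 tested claudins 5 were higher and 4 lower, read against the same 21.9% and 24.3%.

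Sequences upstream of 5 members are shown because these genes moved together (Cldn3, Cldn4, Cgnl1 and Pard6b, all higher in Pkd2-/- than in Pkd1-/- cells) or the other way (Cldn1). RefSeq (GRCm38.p6) windows of 250 bases before to 50 after the transcription start were matched by symbol for 33 of the 42 members, and Cldn8, Cldn9, Cldn23, Jam2, Jam3, Marveld3, Cxadr, Scrib and Llgl2 were not matched. Capitals mark the E-box CAGGTG, the core that zinc finger repressors such as Snai1 and Zeb1 bind, and the GC box GGGCGG, on either strand. The windows are chr5:134985964-134986263 (plus strand) for Cldn3, chr5:134946885-134947184 (minus strand) for Cldn4, chr9:71771553-71771852 (minus strand) for Cgnl1, chr2:168080754-168081053 (plus strand) for Pard6b and chr16:26371790-26372089 (minus strand) for Cldn1, each read 5′ to 3′ along its gene.
Cldn3: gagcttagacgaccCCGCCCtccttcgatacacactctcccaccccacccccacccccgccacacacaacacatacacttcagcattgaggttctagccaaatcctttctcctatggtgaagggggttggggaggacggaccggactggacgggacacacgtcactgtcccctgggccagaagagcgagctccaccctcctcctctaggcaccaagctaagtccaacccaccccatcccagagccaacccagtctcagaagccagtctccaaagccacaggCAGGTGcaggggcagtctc
Cldn4: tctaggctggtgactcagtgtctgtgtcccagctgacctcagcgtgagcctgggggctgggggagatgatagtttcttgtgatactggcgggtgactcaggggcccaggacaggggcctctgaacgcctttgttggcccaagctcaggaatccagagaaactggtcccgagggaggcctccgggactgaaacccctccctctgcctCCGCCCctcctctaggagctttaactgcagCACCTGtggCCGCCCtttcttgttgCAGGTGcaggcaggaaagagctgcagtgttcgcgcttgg
Cgnl1: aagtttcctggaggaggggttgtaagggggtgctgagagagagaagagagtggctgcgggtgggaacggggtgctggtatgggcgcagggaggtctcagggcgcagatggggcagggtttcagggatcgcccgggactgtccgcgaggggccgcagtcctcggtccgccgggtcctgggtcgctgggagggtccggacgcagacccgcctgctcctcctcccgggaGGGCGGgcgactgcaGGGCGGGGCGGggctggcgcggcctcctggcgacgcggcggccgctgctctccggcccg
Pard6b: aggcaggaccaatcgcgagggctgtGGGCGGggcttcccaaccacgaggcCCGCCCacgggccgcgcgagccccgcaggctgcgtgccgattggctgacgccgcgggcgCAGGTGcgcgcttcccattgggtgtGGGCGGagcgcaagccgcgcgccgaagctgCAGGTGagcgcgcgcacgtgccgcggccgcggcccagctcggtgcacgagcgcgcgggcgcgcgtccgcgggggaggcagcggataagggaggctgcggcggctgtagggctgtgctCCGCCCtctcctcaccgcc
Cldn1: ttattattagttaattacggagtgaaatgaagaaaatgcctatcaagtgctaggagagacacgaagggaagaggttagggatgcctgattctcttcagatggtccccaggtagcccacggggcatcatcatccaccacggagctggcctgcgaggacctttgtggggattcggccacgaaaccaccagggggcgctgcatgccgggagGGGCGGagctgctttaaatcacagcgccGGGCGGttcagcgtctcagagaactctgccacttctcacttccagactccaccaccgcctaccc

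The E-box was found in a window of 16 of the 33 members (48.5%) and of 22.6% of all 27025 genes with a window, and Cldn3, Cldn4 and Pard6b held it while Cgnl1 and Cldn1 did not. The GC box was found for 26 of the 33 members (78.8%) and 38.2% of all genes, among them all 5 shown. A search for AACCNGNTT, a form of the grainyhead-like site, and for TATAAA matched 2 and 4 of the 33 members, beside 2.6% and 15.7% of all genes, with both strands read and genes with several windows counted once. A gene with more windows has more chances of a match, so the shares per window are given too. The E-box was in 20 of 52 member windows beside 20.2% of all 32851 windows, and the GC box in 32 of 52 beside 35.7%. These matches describe letters and were not tested as binding sites.

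Of 45 further junction and polarity genes that are not members, 38 were tested. In Pkd1-/- cells 5 were higher and 10 lower at an adjusted p under 0.05, beside 13.6% and 13.5% of all genes. In Pkd2-/- cells 14 were higher and 13 lower, beside 20.0% and 22.3%, and between the clones 17 were higher and 12 lower in Pkd2-/-, beside 21.9% and 24.3%. The adhesion molecule Igsf5 followed the order of Cldn4, with log2 fold changes of -0.62 in Pkd1-/- and 0.28 in Pkd2-/- cells, both past the test. Epcam, the partner of Cldn7, was lower by 0.38 in Pkd2-/- cells.

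Of 17 tested transcription and splicing factors known to control epithelial genes, 6 were higher and 3 lower in Pkd1-/- cells at an adjusted p under 0.05, beside 27.1% of all genes in either direction, and 6 were higher and 5 lower in Pkd2-/- cells, beside 42.3%. Their part in the results above was not tested. Twist1, a factor of epithelial to mesenchymal transition, was at 4, 3, 9 and 10 normalized counts in Wt, 91, 102, 88 and 60 in Pkd1-/- and 0, 0, 1 and 0 in Pkd2-/- libraries, with log2 fold changes of 3.63 and -2.53. Grhl2, an activator of Cldn4 in epithelia, was higher by 0.19 in Pkd2-/- cells (adjusted p = 0.0073). In Pkd1-/- cells Grhl2 overlapped wild-type, at 3191 to 3467 against 3212 to 3505 normalized counts. Grhl3 of the same family was at 59 to 87 normalized counts in Wt, 157 to 189 in Pkd1-/- and 33 to 73 in Pkd2-/- libraries. Grhl1 was at 289 to 345, 298 to 360 and 398 to 436 in the same order. Snai2 was at 0 in all 12 libraries, and Zeb2, Zeb1, Snai1 and Twist2 did not all follow Twist1. Zeb2 was at 56 to 84 normalized counts in Wt, 121 to 162 in Pkd1-/- and 85 to 118 in Pkd2-/- libraries. In the same order, Zeb1 was at 5 to 12, 10 to 17 and 2 to 4. Snai1 was at 3 to 13, 0 to 4 and 3 to 6, and Twist2 at 3 to 9, 19 to 29 and 7 to 13. Markers of other cell types moved as well: the intercalated cell gene Atp6v1b1 was at 29 to 76 normalized counts in Wt, 437 to 544 in Pkd1-/- and 0 to 2 in Pkd2-/- libraries, with Foxi1 and Atp6v0d2 of the same list at 0 in all, and summed over that list of 5 genes the ranges were 29 to 82, 437 to 547 and 3 to 5. The proximal tubule endocytic receptor Lrp2 was at 474 to 555, 25 to 63 and 738 to 1217 normalized counts, with 692 to 790, 584 to 672 and 1017 to 1499 over its list of 6 genes, of which Slc34a1 and Slc22a6 were at 0. Aqp1 of the same list went the other way from Lrp2 in Pkd1-/- cells, at 204 to 245 normalized counts in Wt, 540 to 619 in Pkd1-/- and 259 to 277 in Pkd2-/- libraries (log2 fold change 1.32 in Pkd1-/-, against -3.50 for Lrp2). The fibroblast list of 6 genes summed to 25 to 55, 23 to 37 and 15 to 99 normalized counts and the leukocyte list of 4 genes to 59 to 73, 47 to 65 and 52 to 69 in the same order. In bulk samples of a cell line, fewer cells expressing a gene and less of its RNA per cell cannot be told apart.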

How the data were processed

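Total RNA of 12 mIMCD3 libraries, 4 per genotype, was sequenced. The deposited values are DESeq2 size-factor normalized counts that the authors rounded to whole numbers, treated as a score and not as raw counts. Per the labels and the study's methods, reads were trimmed (Trim Galore, FastQC), aligned to mm10 (HISAT2) and counted per gene (HTSeq); the strand setting is not given in the sources used here. Normalized counts per read were estimated from the step between low values in each library. Values were tested with limma 3.58.1 (R 4.3.3) on log2(normalized count + 1) in 1 model over all 12 libraries, with an intensity trend, for 18552 genes with a mean of at least 1, adjusted by Benjamini-Hochberg within each comparison, and the procedure was tested on simulated data. Positions came from GENCODE M21. Members and gene lists were chosen with earlier results of these data known. All 42 members are accounted for; those called in any comparison and 8 further chosen members are given per library. No column of the table was left unmapped. Some listed genes are counted but not reported here by name.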

Additional observations from a re-analysis of the deposited data

Results flagged for a closer look

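Over the 37 tested members and 3 genotypes, 111 groups of 4 libraries were searched for 1 library far from the other 3, and 7 held one, where chance gives about 1 in 20 groups, or 5.55. In wild-type, replicate 1 stood apart for Cldn8 (129 normalized counts, nearest 100) and Pard3 (3484, nearest 2977), replicate 2 for Cldn9 (233, nearest 140), replicate 3 for Jam3 (2, nearest 1) and Cldn20 (3, nearest 0), and replicate 4 for Cldn14 (6, nearest 0). Pkd2-/- replicate 4 stood apart for Cgnl1 (3762, nearest 3395). The rate given for chance assumes continuous values, so it does not hold for the rounded low counts of Jam3, Cldn20 and Cldn14. None of the calls of Cldn8, Cldn9 or Cgnl1 was lost when any 1 library was left out.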

How the results depend on the processing

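Counts of members in either direction (called, with an adjusted p under 0.05 or without overlap) stayed within 1.5 times its reported value under the alternatives tried, among them pseudocounts of 0.5 and 5, no filter or a minimum mean of 10, only the 2 genotypes compared, upper quartile scaling and limma voom on estimated reads. Called members ranged from 3 to 4 (Pkd1-/-), 4 to 5 (Pkd2-/-) and 9 to 12 (clone against clone), and from 4 to 5, 4 to 5 and 10 to 12 when 1 library was left out. By direction, members called higher fell from 2 to 1 in Pkd1-/- cells with a pseudocount of 5, and from 2 to 1 in Pkd2-/- cells with a pseudocount of 5, with a minimum mean of 10 and without Pkd2-/- replicate 2 or 4 (range 1 to 2 over the libraries left out). The alternatives for counts without overlap were chosen after seeing the data. Of 864 member values with all libraries, 853 stayed on their side of an adjusted p of 0.05, 7 lost it and 4 gained it; of 1323 with 1 library left out, 34 lost and 8 gained it. No value past that threshold changed sign, and 4 and 33 values short of it did. At a minimum mean of 10, Cldn19 stayed tested and Cldn23 and Jam3 did not. With the replicate block, called members were 4, 5 and 11 and members with an adjusted p under 0.05 were 18, 20 and 28; Cxadr in Pkd2-/- cells (adjusted p = 0.0331) and Cldn2 between the clones (0.0432) gained it. Libraries of the same number share only that number: the correlation of their deviations over 13703 genes exceeded 0.1 in 2 of 12 pairs (-0.073 to 0.2). Depth limits the members near 0 counts, and 1 clone per mutant limits all comparisons, since genotype and clone cannot be told apart.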
